A study of Schizosaccharomyces pombe with 4 samples.

Results

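The genes described here are the protein-coding genes of the fission yeast Schizosaccharomyces pombe whose names are meu or mug followed by a number. There were 133 of them among 5134 protein-coding transcripts, 18 named meu and 115 named mug, in a table of 7023 annotated features, and they were chosen by name alone. RNA was measured on both strands in 4 libraries, 2 from a prototrophic wild-type strain (WT) and 2 from a prototrophic spt6-1 strain, in which spt6, the gene of a transcription elongation factor, is mutated. Both strains were cultured in the rich medium YES at 30 °C and then held at 37 °C for 2 h, so the WT libraries were heated too. The labels name neither nitrogen starvation nor a mating step for any group, nor separate cultures for the replicates, so the p-values measure the spread between these libraries, which may be technical. By name, 5 non-coding meu RNAs and 2 transcripts of meu1-1 fell outside the rule.

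The family names come from screens for transcripts that become abundant when cells leave vegetative growth and enter meiosis (meu, meiotic expression upregulated, and mug, meiotically upregulated gene). Many of their products act in spore formation, meiotic recombination or the meiotic divisions, while others are ordinary metabolic or trafficking proteins. In dividing cells such genes are kept low in several ways. The forkhead activator Mei4, which binds FLEX sites in the promoters of middle meiotic genes, is scarcely made, and the YTH protein Mmi1 binds a short repeated motif in many meiotic transcripts and sends them for decay together with Red1 and the nuclear exosome. Spt6 travels with RNA polymerase II and helps to restore nucleosomes behind it, and chromatin that is not restored can allow transcription to start within genes and on the opposite strand.

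Values are RPKM, read counts scaled for length and sequencing depth, sense values being scaled to exon length and antisense values to the span of the locus. Summed over features, where a read in overlapping features can count more than once, WT sense reads numbered 36520471 (replicate 1) and 17093322 (replicate 2). In spt6-1 they numbered 39693042 and 16894607. Antisense sums were 4716866, 2231131, 5672959 and 2960923 in the same order. The per-million totals worked out from the RPKM were 35917252, 17201744, 27994342 and 17272448. A single read in 1 kb was worth 0.0278 to 0.0581 RPKM, which sets the precision of low values, so the replicates 1 are the more deeply read. The spt6 gene itself had 65.5 and 61.6 sense RPKM in WT, against 12.7 and 8.32 in spt6-1, a fall of 2.57 on the log2 scale by limma (adjusted p 0.000539). Its antisense RPKM rose from 0.0631 and 0.0263 in WT to 50.5 and 25.5 in spt6-1 (66.9-fold, limma adjusted p 6.57e-07). The groups thus differ at the mutated gene, which by itself does not identify the allele.

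Promoters of 4 members that rose on the sense strand are shown because they hold the FLEX letters GTAAACA or GTAAATA. They belong to the members with the largest sense rises that have such a match and no coding gene in the window. Each run is the 250 bases before the start of the gene in the RefSeq annotation of ASM294v3, 5′ to 3′ on the strand of the gene, with matches on either strand in capitals.
meu7 (chrII:4274666-4274915, minus strand): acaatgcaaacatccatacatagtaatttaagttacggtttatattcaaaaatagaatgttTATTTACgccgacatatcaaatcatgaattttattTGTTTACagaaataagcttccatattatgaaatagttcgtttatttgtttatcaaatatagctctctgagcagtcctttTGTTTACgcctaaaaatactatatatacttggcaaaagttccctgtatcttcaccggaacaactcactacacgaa
meu14 (chrII:4066044-4066293, plus strand): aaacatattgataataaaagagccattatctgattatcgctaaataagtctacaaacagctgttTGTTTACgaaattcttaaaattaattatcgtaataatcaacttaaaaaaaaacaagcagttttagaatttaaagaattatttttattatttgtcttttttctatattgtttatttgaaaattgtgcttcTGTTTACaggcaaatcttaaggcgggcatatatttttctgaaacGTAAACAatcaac
meu25 (chrII:1563652-1563901, plus strand): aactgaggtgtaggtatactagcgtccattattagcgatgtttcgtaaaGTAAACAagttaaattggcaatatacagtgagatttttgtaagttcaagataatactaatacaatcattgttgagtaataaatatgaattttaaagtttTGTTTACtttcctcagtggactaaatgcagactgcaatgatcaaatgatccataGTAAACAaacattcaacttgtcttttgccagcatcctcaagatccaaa
mug14 (chrII:128360-128609, plus strand): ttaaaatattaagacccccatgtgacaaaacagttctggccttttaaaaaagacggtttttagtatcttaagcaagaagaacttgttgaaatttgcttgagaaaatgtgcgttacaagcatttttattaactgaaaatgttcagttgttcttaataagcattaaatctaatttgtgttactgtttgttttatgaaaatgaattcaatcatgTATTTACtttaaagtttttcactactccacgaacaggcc
The meu7 window holds 3 matches, GTAAATA at -189 and GTAAACA at -154 and -75 from the annotated start, each on the opposite strand and so spelled in reverse complement. GTAAACA occurs 3 times before meu14, at -186, -57 and -13. The meu25 window has GTAAACA at -201, -102 and -48. A single GTAAATA lies at -39 before mug14.

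Over the families, GTAAACA on either strand was found in 10 of 18 meu windows (55.6%) and 48 of 115 mug windows (41.7%), against 14.8% of 5101 protein-coding windows of the same length. GTAAATA was found in 16.7% of meu, 21.7% of mug and 14.4% of all windows. The core of the site read by Atf factors, TGACGT, occurred in 0 meu and 8 mug windows (6.96%), against 5.53% of all. TTAAAC, the DNA spelling of the core read by Mmi1, occurred on the sense strand of the exons in 50% of meu, 45.2% of mug and 49.4% of all transcripts. The FLEX letters lay in 7 of 10 meu members that rose on the sense strand and 4 of the other 8, and in 20 of 34 mug members that rose and 42 of the other 81, differences that were not tested. A match is a description of letters and not a bound site.

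In WT the median meu gene was low on the sense strand and higher on the antisense strand, although 7 of 18 had more sense than antisense RNA in both WT libraries. The median meu gene had 2.00 and 1.83 sense RPKM in WT (replicate 1 first, here and below), against 6.54 and 6.17 in spt6-1. On the antisense strand it had 3.46 and 4.59 RPKM in WT, against 4.43 and 4.08 in spt6-1. The number of meu genes under 1 sense RPKM went from 7 and 6 of 18 in WT to 3 and 3 in spt6-1. The mug genes lay higher, with a median of 9.48 and 9.64 sense RPKM in WT, against 12.1 and 12.4 in spt6-1, and those under 1 RPKM went from 18 and 17 of 115 to 4 and 6. The median mug antisense level was 0.940 and 0.889 RPKM in WT, against 3.61 and 2.99 in spt6-1. Antisense RNA exceeded sense RNA in both WT libraries at 10 of 18 meu genes (55.6%) and 23 of 115 mug genes (20%), against 8.41% of all protein-coding genes. For the median protein-coding gene, sense levels were 27.0 and 28.2 RPKM in WT, against 28.6 and 28.1 in spt6-1, and antisense levels rose from 0.496 and 0.462 to 3.97 and 3.43.

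A gene was called when limma, fitted to log2(RPKM + 0.5) over all features that passed a filter on low values, gave a Benjamini-Hochberg adjusted p under 0.05. On the sense strand 10 of the 15 meu genes tested rose and 0 fell (voom called 0 lower, and 0 fell at an unadjusted p under 0.05). Their median log2 change was 1.34, while 21.8% of all features and 12.1% of protein-coding genes rose and 6.67% and 8.2% fell. Of the 111 mug genes tested 34 rose and 9 fell, with a median log2 change of 0.38, but after quantile normalization the split was 12 and 23, against 6 and 1 for meu. The median over all 6547 features was 0.16, over protein-coding genes 0.03, and over all features -0.13 after quantile normalization. With each library centred on its median feature the sense counts were 9 and 0 for meu and 27 and 10 for mug. A gene under 1 RPKM in both WT libraries could be tested only if both spt6-1 libraries reached 1 RPKM. Genes that stayed low were left out, so the shares that rose are in part set by the filter. With no filter 10 of 18 meu and 25 of 115 mug genes rose, and 1119 of all 7023 features did. In RNA from whole cultures, a little RNA in many cells and much RNA in a few cannot be told apart.

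On the antisense strand the families stood the other way round. Of the 16 meu genes tested 4 rose and 1 fell, with a median log2 change of 0.11, and of the 104 mug genes tested 77 rose and 3 fell, with a median of 1.04, but with libraries centred on their median the splits were 0 and 14 for meu and 9 and 68 for mug, and after quantile normalization 0 and 11, and 16 and 43. Across the 4728 protein-coding genes tested 81.9% rose and 1.65% fell, with a median of 1.58, which centring turned to -0.51 and quantile normalization to -0.08. The antisense changes below are therefore given as deposited, beside this general rise. The antisense-to-sense ratio rose at 3 and fell at 10 of 14 meu genes, and rose at 48 and fell at 19 of 102 mug genes, while it rose at 71.7% and fell at 6.04% of all genes tested. Its median log2 change was -1.34 for meu, 0.62 for mug and 1.59 for all. With centred libraries the ratio split was 0 and 12 for meu and 10 and 66 for mug, and after quantile normalization 1 and 12, and 16 and 43.

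**Figure D1:**
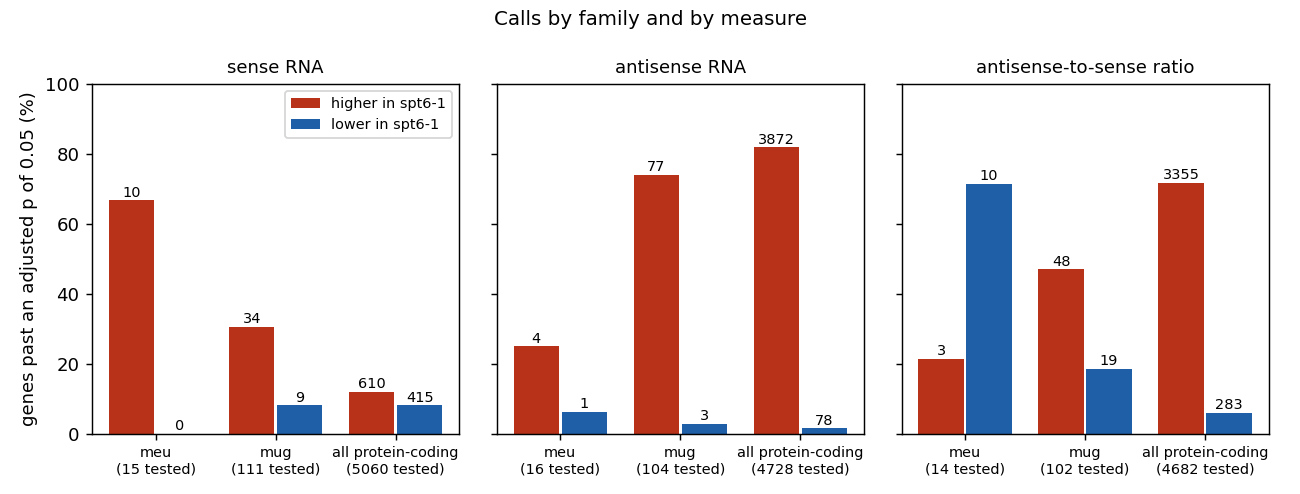
Share of genes tested (vertical axis, %) that passed an adjusted p of 0.05 in limma, higher (red) or lower (blue) in spt6-1, for the meu genes, the mug genes and all protein-coding genes, with the number of genes over each bar. On the sense strand 10 of 15 meu and 34 of 111 mug genes were higher (12 higher and 23 lower for mug after quantile normalization). On the antisense strand 4 of 16 meu and 77 of 104 mug genes were higher (0 and 9 with centred libraries).

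The meu gene with the largest rise was meu7 (SPBC16A3.13, chromosome II, 4272341 to 4274665, minus strand in the deposited annotation), which encodes an alpha-amylase. It had 2.83 and 2.53 sense RPKM in WT, against 171 and 121 in spt6-1, from 236, 101, 11103 and 4851 reads. Both spt6-1 libraries lay far above both WT libraries, a 45.4-fold rise on the scale with the pseudocount (log2 change 5.50 ± 0.22, SE, adjusted p 6.35e-05). Antisense RPKM at meu7 were 28.3 and 29.6 in WT and 54.5 and 34.2 in spt6-1, which did not pass (adjusted p 0.0619). So the sense level was 9.98% and 8.54% of the antisense level in WT and 313% and 354% in spt6-1, and the log2 ratio of antisense to sense fell by 4.94 (adjusted p 1.34e-06). The non-coding RNA SPNCRNA.1685 runs opposite 47.4% of meu7, with 15.3 and 20.1 RPKM in WT, against 17.7 and 12.1 in spt6-1.

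Members whose products act on spores follow. The gene meu14 encodes a PIL domain protein of the leading edge of the forespore membrane. Its sense level was 1.07 and 1.35 RPKM in WT, against 9.16 and 7.89 in spt6-1, a 5.29-fold rise (log2 2.40 ± 0.23, adjusted p 0.00054). Antisense RPKM there were 17.9 and 30.7 in WT and 23.2 and 29.2 in spt6-1, groups that overlap, and SPNCRNA.1663 covers 100% of the locus on that strand. The glucan-alpha-1,4-glucosidase gene meu17 had 0.394 and 0.514 sense RPKM in WT, against 2.38 and 2.59 in spt6-1 (3.13-fold, adjusted p 0.00705). It was the 1 meu gene whose antisense RNA fell, from 17.9 and 13.9 to 11.6 and 6.58 RPKM (log2 -0.81, adjusted p 0.0192), a call lost when WT replicate 1 was left out (adjusted p 0.0722) and when spt6-1 replicate 2 was (0.208, log2 -0.43). The GPI-anchored protein gene meu10, needed for spore wall maturation, had 0.855 and 0.806 sense RPKM in WT, against 2.93 and 2.79 in spt6-1 (2.53-fold, adjusted p 0.0105). In all 3 of these genes the lower spt6-1 library was above the higher WT library in sense. At meu10 and meu17, under 1 RPKM in both WT libraries, the filter alone required this order.

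The kinase gene mug27, whose product Slk1 is needed for forespore membrane growth, had 0.161 and 0.0516 sense RPKM in WT, against 2.98 and 2.13 in spt6-1, from 13, 2, 188 and 83 reads (5.01-fold, adjusted p 0.00322). Antisense RPKM at mug27 were 11.5 and 20.7 in WT and 108 and 83.1 in spt6-1 (5.96-fold, adjusted p 2.44e-05). Both strands thus rose, and their ratio did not pass (adjusted p 0.592). Its sense level was 1.39% and 0.250% of the antisense level in WT and 2.77% and 2.57% in spt6-1, and the part that reads assigned to the wrong strand have in it was not tested. The opposite strand carries the non-coding RNAs SPNCRNA.583 and SPNCRNA.1217, which overlap each other there and rose by 2.57 and 2.56 on the log2 scale, so these are the same reads counted again. The RNA-binding protein gene mug28 had 0.335 and 0.572 sense RPKM in WT, against 2.56 and 2.47 in spt6-1 (3.18-fold, adjusted p 0.00775) under antisense levels of 45.0 and 60.6, and 61.4 and 69.7, which belong to the opposite gene mrp17. These 6 genes were listed with earlier results known and are not all the spore genes of the families. Each of the 6 rose on the sense strand, where 12.1% of protein-coding genes tested did, with a median log2 change of 2.00. On the antisense strand, where 81.9% of protein-coding genes tested rose, 1 rose, 1 fell and 4 did not pass. Of the 6 listed genes, meu10, meu17, mug27 and mug28 were under 1 RPKM in both WT libraries and passed the sense filter only through spt6-1. The genes mug56 and mug65, annotated as spore wall assembly proteins and not in the list, were not called on the sense strand. The sense level of mug56 was 43.5 and 49.6 RPKM in WT, against 39.3 and 37.5 in spt6-1 (log2 -0.27, adjusted p 0.347). That of mug65 was 41.3 and 27.98, against 43.7 and 21.6 (log2 -0.14, adjusted p 0.797). Antisense RNA rose at both.

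Of the pair that acts in meiotic recombination, meu13 encodes the homologous-pairing protein Hop2 and mug20 a protein of the linear elements. The sense level of meu13 was 0.898 and 1.43 RPKM in WT, against 3.29 and 2.58 in spt6-1 (2.08-fold, adjusted p 0.0359). That of mug20 was 1.95 and 2.51 in WT and 4.01 and 4.33 in spt6-1 (1.72-fold, adjusted p 0.0468). Both genes passed with all 4 libraries, and both lost the call when any 1 was left out, with adjusted p up to 0.170 for meu13 and 0.207 for mug20. Antisense RNA of mug20 rose from 0.701 and 0.671 to 4.35 and 3.34 RPKM (3.64-fold, adjusted p 3.09e-05), while meu13 was below the antisense filter.

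The other meu genes that rose on the sense strand lie largely opposite other transcripts. The uncharacterised gene meu27 had 0.269 and 0.151 RPKM in WT, against 4.35 and 4.45 in spt6-1 (6.93-fold, log2 2.79 ± 0.28, adjusted p 0.000723). It lies wholly within the transcript of chk1, the checkpoint kinase gene on the other strand, whose own level was 8.36 and 6.97 RPKM in WT, against 6.21 and 7.08 in spt6-1 and was not called. The pleckstrin homology domain gene meu6 likewise lies within the transcript of the histone methyltransferase gene clr4, and had 2.50 and 1.73 sense RPKM in WT, against 8.03 and 8.44 in spt6-1 (3.38-fold, adjusted p 0.00222). The level of clr4 was 9.48 and 10.9 RPKM in WT, against 11.2 and 10.1 in spt6-1, with overlapping groups. For meu25, uncharacterised, sense RPKM were 2.37 and 2.04 in WT and 15.9 and 11.1 in spt6-1 (5.10-fold, adjusted p 0.000724), below the antisense level of 7.91 and 8.58 in WT and above that of 8.83 and 8.46 in spt6-1. The uncharacterised meu31 had 1.96 and 2.36 RPKM in WT, against 8.49 and 9.23 in spt6-1 (3.53-fold, adjusted p 0.00121). The amino-acid permease gene meu22 had 2.04 and 1.92 in WT and 4.13 and 3.45 in spt6-1 (1.72-fold, adjusted p 0.0453) and lost its call without any 1 of the libraries (adjusted p up to 0.164).

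The 5 tested meu genes that did not pass on the sense strand were also the 5 with the highest sense level in WT. The gene meu29 had 40.1 and 58.5 RPKM in WT, against 51.8 and 84.2 in spt6-1, and the ubiquitin ligase gene meu34 had 26.1 and 36.1 in WT and 27.0 and 45.4 in spt6-1, so that both pairs of groups overlap. Sense levels of meu18 were 14.2 and 14.4 in WT and 17.4 and 18.1 in spt6-1 (adjusted p 0.241). For the aldehyde dehydrogenase gene meu8 (atd3) they were 10.3 and 10.3 in WT and 15.9 and 14.9 in spt6-1 (1.47-fold, adjusted p 0.0525). Below these came meu23, with 7.42 and 4.24 in WT and 5.05 and 4.17 in spt6-1. Between meu18 and meu8 the WT values do not overlap, whereas those of meu29 and meu34 are separated by less than the spread of meu29. Of these 5 genes 4 were the meu genes whose antisense RNA rose. At meu23 it went from 0.762 and 0.902 to 5.38 and 3.43 RPKM (3.62-fold, adjusted p 7.05e-05), and at meu29 from 0.579 and 1.31 to 2.91 and 4.34 (2.90-fold, adjusted p 0.000809). For meu34 the values were 0.0244 and 0.0510 in WT and 1.25 and 0.812 in spt6-1 (2.82-fold, adjusted p 3.98e-05), and for meu8 3.81 and 5.20, and 7.13 and 6.98 (1.52-fold, adjusted p 0.0217), a call that meu8 kept only without WT replicate 2 when libraries were left out singly (adjusted p up to 0.177). The last 3 meu genes, meu15, meu26 and meu32, stayed under 1 sense RPKM in every library and were not tested on that strand.

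**Figure D2:**
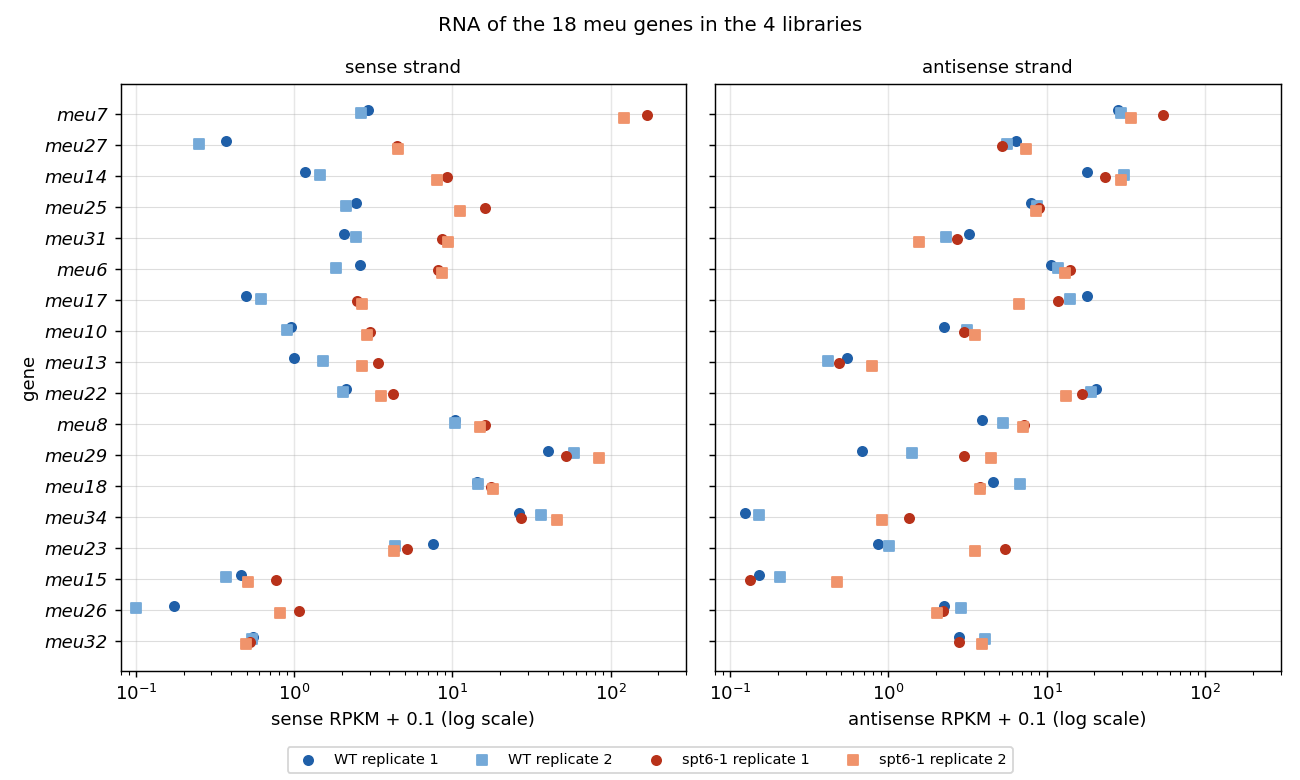
Sense (left) and antisense (right) RPKM of each of the 18 meu genes in the 4 libraries, on a log scale after adding 0.1. Genes are ordered by sense change, with the 3 untested genes last, and circles and squares are replicates 1 and 2 (blue WT, red spt6-1). In the upper 10 rows, the genes called higher, both spt6-1 libraries are right of both WT libraries on the sense strand. The gap is widest at meu7 (2.83 and 2.53 against 171 and 121). On the antisense strand 1 of these 10, meu17, was called, lower, and 0 were called higher.

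Taking both strands, the 10 meu genes that rose in sense RNA comprised 8 whose antisense RNA was not called, 1 in which it fell and 1 not tested. None of the 10 had a called antisense rise, and 0 of the 10 meu genes with more antisense than sense RNA in WT did either (limma, 0 also at an unadjusted p under 0.05). All 8 of the latter that could be tested rose on the sense strand. Of these 8, meu10, meu17 and meu27 were under 1 RPKM in both WT libraries and passed the filter only through spt6-1. The other genes of that set, meu26 and meu32, stayed under 1 RPKM and were not tested, so this count is in part set by the filter. Among mug genes with more antisense than sense RNA in WT, 15 of 21 tested rose on the sense strand and 11 of 23 on the antisense strand. The corresponding shares for protein-coding genes outside both families were 126 of 363 (34.7%) and 119 of 399 (29.8%). These WT values enter both the split and the change, so the shares are a description. The gene meu25 joined meu7 in switching from more antisense in both WT libraries to more sense RNA in both spt6-1 libraries, as did mug130. Sense RPKM of mug130 were 2.22 and 1.74 in WT and 3.48 and 3.97 in spt6-1, which did not pass (adjusted p 0.053). This switch was made by 2 of 18 meu genes, 1 of 115 mug genes (0.870%) and 49 of 5134 protein-coding genes (0.954%). The reverse switch, to antisense, was made by 0 meu genes, 5 mug genes (4.35%) and 192 protein-coding genes (3.74%).

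Sense calls were also counted by level and by overlap. With a mean over the 4 libraries under 10 RPKM, 9 of 10 tested meu genes, 22 of 48 mug genes (45.8%) and 140 of 635 other protein-coding genes (22.0%) rose. At 10 RPKM or more these were 1 of 5, 12 of 63 and 426 of 4299 (9.91%). The 1 meu gene there was meu7, which is in that set only through its spt6-1 values. The spt6-1 values enter both this split and the call, so the shares by level are a description. In the lower set the filter left 10 of 13 meu, 48 of 52 mug and 635 of 702 other genes to test. Features annotated on the opposite strand covered 50% or more of the locus at 11 of 18 meu genes (61.1%) and 45 of 115 mug genes (39.1%), against 23.3% of protein-coding genes. Where they did, 8 of 10 meu and 20 of 43 mug genes rose on the sense strand, and 1 of 11 and 23 of 43 on the antisense strand. Where they covered less, sense rises numbered 2 of 5 and 14 of 68, and antisense rises 3 of 5 and 54 of 61. Among protein-coding genes outside both families 13.7% rose on the sense strand with such overlap and 10.8% with less, and 58.2% and 90.2% on the antisense strand, near the mug shares of 53.5% and 88.5%. The antisense reads of a member and the sense reads of the transcript opposite it are the same RNA and not separate measurements.

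Among the mug genes the largest sense rises were those of mug137 and mug14. The gene mug137 (SPCC1919.11, chromosome III, 2231665 to 2233381, plus strand) encodes a BAR adaptor, a protein that binds curved membrane. It had 0.430 and 0.171 RPKM in WT, against 11.6 and 12.4 in spt6-1, from 21, 4, 440 and 290 reads (15.8-fold, log2 3.98 ± 0.26, adjusted p 0.000121). Antisense RPKM at mug137 were 22.2 and 35.4 in WT and 46.4 and 48.2 in spt6-1 (1.67-fold, adjusted p 0.0213), a call kept only when WT replicate 2 was left out and otherwise lost (adjusted p 0.130 to 0.172). The adducin gene mug14 (SPBC359.06, chromosome II, 128660 to 129742, plus strand), an actin cytoskeleton gene, has no annotated feature opposite it. Its sense level was 2.73 and 3.06 RPKM in WT, against 64.0 and 43.4 in spt6-1 (15.7-fold, log2 3.97 ± 0.23, adjusted p 8.39e-05). Antisense RNA of mug14 also rose, from 1.57 and 1.29 to 4.95 and 2.99 RPKM (2.27-fold, adjusted p 0.00174).

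Several mug genes rose from under 1 RPKM in both WT libraries. Such genes passed the filter only because both spt6-1 libraries reached 1 RPKM, so those that stayed low were not tested. The putative AMP-binding enzyme gene mug62 had 0.121 and 0.0933 RPKM in WT, against 6.61 and 5.95 in spt6-1 (11.2-fold, adjusted p 0.000238), while antisense RPKM were 15.1 and 18.3, and 11.9 and 14.9. It lies within the transcript of the GTPase gene alp41, which had 14.8 and 17.4 RPKM in WT, against 11.6 and 14.3 in spt6-1. In mug95, uncharacterised, sense RPKM were 0.699 and 0.556 in WT and 7.13 and 5.19 in spt6-1 (5.86-fold, adjusted p 0.000847). The gene mug55 (fzr3), a meiotic coactivator of the anaphase-promoting complex, had 0.280 and 0.256 in WT and 4.15 and 3.27 in spt6-1 (5.46-fold, adjusted p 0.00141). The uncharacterised mug112 had 0.0737 and 0.308 in WT and 3.02 and 2.60 in spt6-1, from 1, 2, 32 and 17 reads (4.86-fold, adjusted p 0.00322). For mug131, also uncharacterised, the values were 0.248 and 0.445, and 3.96 and 2.36 (4.25-fold, adjusted p 0.0056), under antisense RPKM of 39.6, 38.5, 41.2 and 43.6. At these 5 genes the filter alone required both spt6-1 libraries to lie above both WT libraries in sense. Of the 5 only mug55 had a called antisense change, a rise from 15.2 and 23.1 to 28.7 and 28.8 RPKM (adjusted p 0.0374). That call too was kept only when WT replicate 2 was left out (adjusted p otherwise 0.176 to 0.276).

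Of the remaining genes among the 10 with the largest sense rises, mug108 had 2.35 and 2.03 RPKM in WT, against 19.2 and 24.9 in spt6-1 (8.33-fold, adjusted p 0.000147). It lies within the transcript of rga3, on the other strand, whose level stayed between 1.497 and 2.28 RPKM. For mug97 sense RPKM were 1.72 and 2.04 in WT and 8.07 and 9.58 in spt6-1 (3.91-fold, adjusted p 0.00102). The gene opposite it is another member, mug57, so sense reads of the one are antisense reads of the other over 1498 bp. The same holds for mug55 and mug163 over 1592 bp and for mug58 and mug177 over 1407 bp. The other 24 mug genes that rose did so 1.61-fold to 3.46-fold. The largest of these was the sterol deacetylase gene mug180 (say1), with 4.09 and 4.94 RPKM in WT, against 18.7 and 15.1 in spt6-1 (adjusted p 0.00121).

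Many of the mug sense calls needed all 4 libraries. Of the 34 mug genes that rose on the sense strand 17 passed with every library left out in turn, and of the 9 that fell 1 did, while of the 10 meu genes that rose 8 did. The count of mug rises was 20 without WT replicate 1, 24 without WT replicate 2, 21 without spt6-1 replicate 1 and 24 without spt6-1 replicate 2. Falls numbered 1, 3, 4 and 4 in the same order. The most abundant member of either family, mug106, an uncharacterised gene, had 791 and 556 RPKM in WT, against 1073 and 1051 in spt6-1 (1.60-fold, adjusted p 0.186), which did not pass although the groups do not overlap. The cyclin gene mug80 (clg1) had 126 and 237 RPKM in WT, against 148 and 105 in spt6-1, and the phosphatase inhibitor gene mug134 (igo1) 61.6 and 115, and 84.5 and 96.6, with overlapping groups in both. The gene mug35 had 105 and 111 in WT and 218 and 171 in spt6-1 (1.79-fold, adjusted p 0.0482) and lost its call without any 1 library (adjusted p up to 0.179).

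The 9 mug genes lower in spt6-1 fell by 1.60-fold to 2.33-fold, and 7 of them had a called antisense rise while 2 were below the antisense filter. Antisense rises were called at 77 of the 104 mug genes and 81.9% of the protein-coding genes tested, and a link between the strands was not tested. The peptidase family gene mug67 (sdu1) had 8.73 and 8.83 RPKM in WT, against 4.26 and 2.83 in spt6-1 (log2 -1.22, adjusted p 0.00994), and its antisense RNA rose from 2.10 and 1.60 to 4.97 and 4.87 (2.32-fold, adjusted p 0.000388). In mug67 sense exceeded antisense in both WT libraries and antisense exceeded sense in both spt6-1 libraries. The BAR domain gene mug64 had 143 and 123 sense RPKM in WT, against 66.7 and 59.4 in spt6-1 (log2 -1.07, adjusted p 0.0147), and antisense RPKM of 0.704 and 0.466, and 8.35 and 8.04 (8.06-fold, adjusted p 1.88e-06). The sense call of mug64 was lost without WT replicate 1 (0.0648) and without spt6-1 replicate 2 (0.0646). For mug69 (snd2), of the ENV10 family, sense RPKM were 27.9 and 23.9 in WT and 12.6 and 14.0 in spt6-1 (log2 -0.94, adjusted p 0.012, lost without WT replicate 1 at 0.0612 and without spt6-1 replicate 1 at 0.0746). For mug184 they were 9.45 and 9.47, and 5.46 and 4.35 (log2 -0.89, adjusted p 0.0172), and for mug100 11.9 and 14.6, and 5.81 and 8.74 (log2 -0.84, adjusted p 0.0412). The call of mug184 was kept only without spt6-1 replicate 1 (adjusted p up to 0.0853) and that of mug100 only without spt6-1 replicate 2 (up to 0.188).

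**Figure D3:**
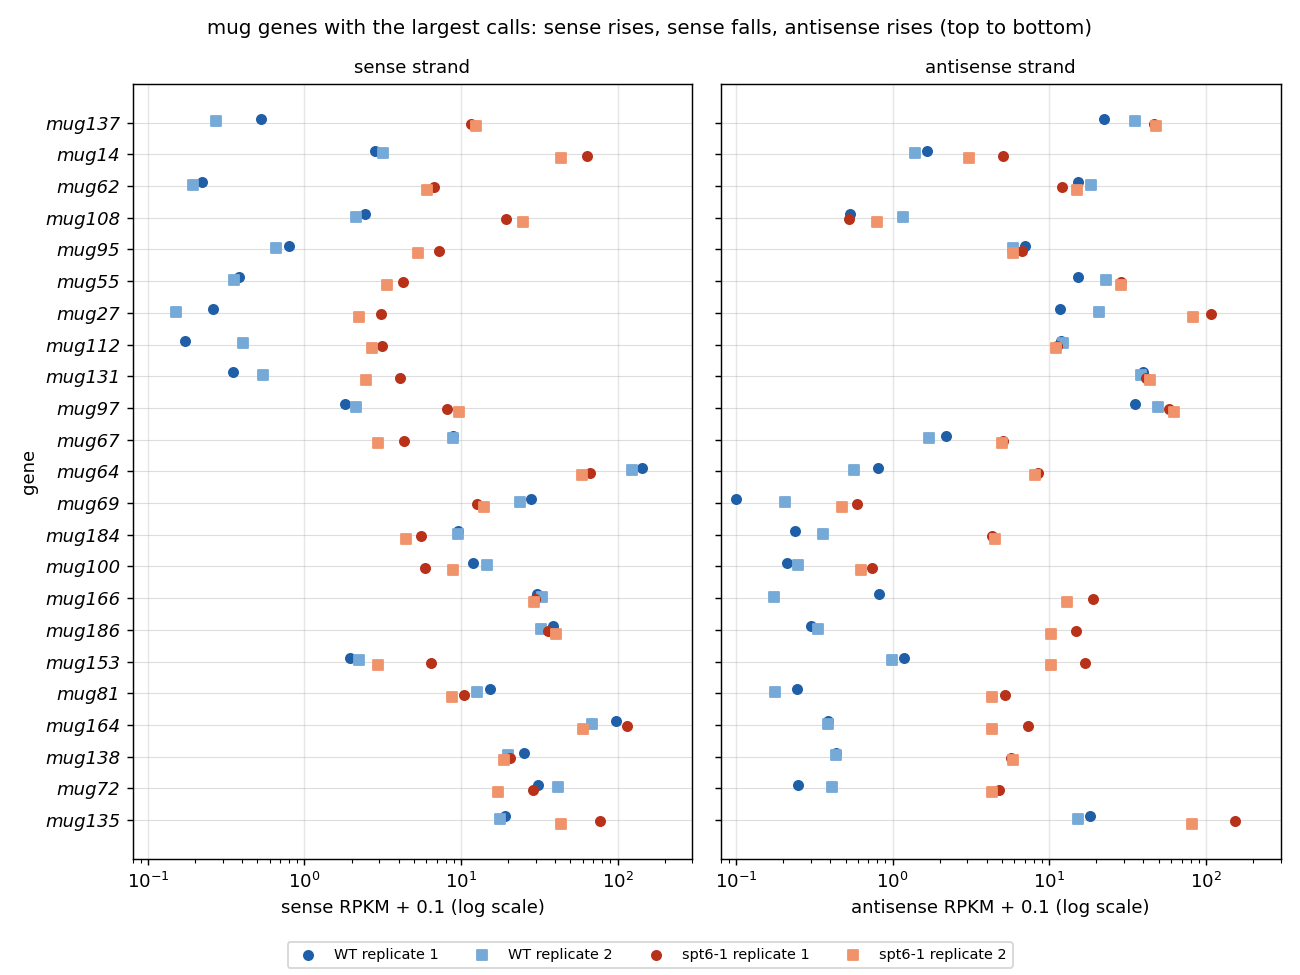
Sense (left) and antisense (right) RPKM of the 10 mug genes with the largest sense rises, the 5 with the largest sense falls and those with the largest antisense rises, top to bottom, on a log scale after adding 0.1. Circles and squares are replicates 1 and 2 (blue WT, red spt6-1). At mug137 sense values were 0.430 and 0.171 in WT against 11.6 and 12.4 in spt6-1, and at mug166 antisense values were 0.716 and 0.0747 against 19.0 and 12.8 while its sense values lie between 29.0 and 32.8.

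The 10 largest antisense rises were at mug genes below the median mug antisense level in both WT libraries, mug135 and mug153 excepted. Ranking by fold change in itself favours low WT values. At the uncharacterised mug166 it went from 0.716 and 0.0747 RPKM to 19.0 and 12.8 (19.2-fold, adjusted p 3.3e-06), while sense RPKM were 30.4 and 32.8 in WT and 29.5 and 29.0 in spt6-1. At the sorting nexin gene mug186 (snx41) antisense RPKM were 0.199 and 0.234 in WT and 14.7 and 10.2 in spt6-1 (17.8-fold, adjusted p 9.51e-07), with sense RPKM of 38.6 and 32.2, and 35.7 and 40.6. Neither gene was called on the sense strand, and neither has an annotated feature opposite it. Antisense levels of mug153 were 1.09 and 0.895 in WT and 16.8 and 10.1 in spt6-1 (9.10-fold, adjusted p 3.21e-06). They were 0.143 and 0.0772, and 5.14 and 4.24 at the RNA helicase gene mug81 (rqt2, 8.48-fold, adjusted p 1.79e-06). At mug164 (mmb1), whose product binds mitochondria to microtubules, they were 0.289 and 0.287, and 7.22 and 4.24 (7.67-fold, adjusted p 5.62e-06). Those of the metallopeptidase gene mug138 and of mug184 rose 7.44-fold and 6.91-fold, from 0.337 and 0.334 RPKM in WT at mug138 and from 0.139 and 0.260 at mug184. At the oxidoreductase gene mug72 the rise was 6.77-fold, from 0.149 and 0.312 to 4.65 and 4.19. All these rises held without each library in turn.

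The gene mug135 (SPCC330.04c, chromosome III, 112050 to 113477, minus strand) differed from these in rising on both strands from a high level. Its sense RPKM were 19.0 and 17.6 in WT and 76.8 and 43.3 in spt6-1 (3.10-fold, adjusted p 0.00773), and its antisense RPKM 18.2 and 15.1, and 154 and 81.9 (6.62-fold, adjusted p 2.14e-05). The non-coding RNA SPNCRNA.1109 on the opposite strand had 28.6 and 24.0 RPKM in WT, against 282 and 150 in spt6-1. On both strands of mug135 spt6-1 replicate 1 was well above spt6-1 replicate 2, and the sense log2 change of 1.63 was 1.22 without the former and 2.04 without the latter. The remaining 67 mug genes with an antisense rise did so 1.42-fold to 5.96-fold, and 59 of all 77 passed with each library left out in turn. In 21 of the 77 sense RNA rose too, in 7 it fell, in 48 it was not called and in 1 it was not tested.

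Antisense RNA fell at 3 mug genes. At mug74 it went from 4.21 and 6.56 RPKM to 0.970 and 1.43 (3.43-fold lower, adjusted p 0.000127), and SPNCRNA.885, which covers 100% of mug74 on that strand, had 8.83 and 9.21 RPKM in WT, against 3.74 and 3.18 in spt6-1 (adjusted p 0.00417). At the transporter gene mug73 it went from 1.82 and 3.10 to 0.777 and 0.858 (2.19-fold lower, adjusted p 0.00216). The arrestin family gene mug170 had 1.21 and 2.37 antisense RPKM in WT, against 0.775 and 0.875 in spt6-1 (adjusted p 0.0269), kept only without WT replicate 1 (up to 0.315 otherwise), and 12.2 and 10.8 sense RPKM in WT, against 19.0 and 25.2 in spt6-1 (1.87-fold, adjusted p 0.0193, kept only without spt6-1 replicate 1). At these 3 genes both spt6-1 libraries lay below both WT libraries in antisense.

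**Figure D4:**
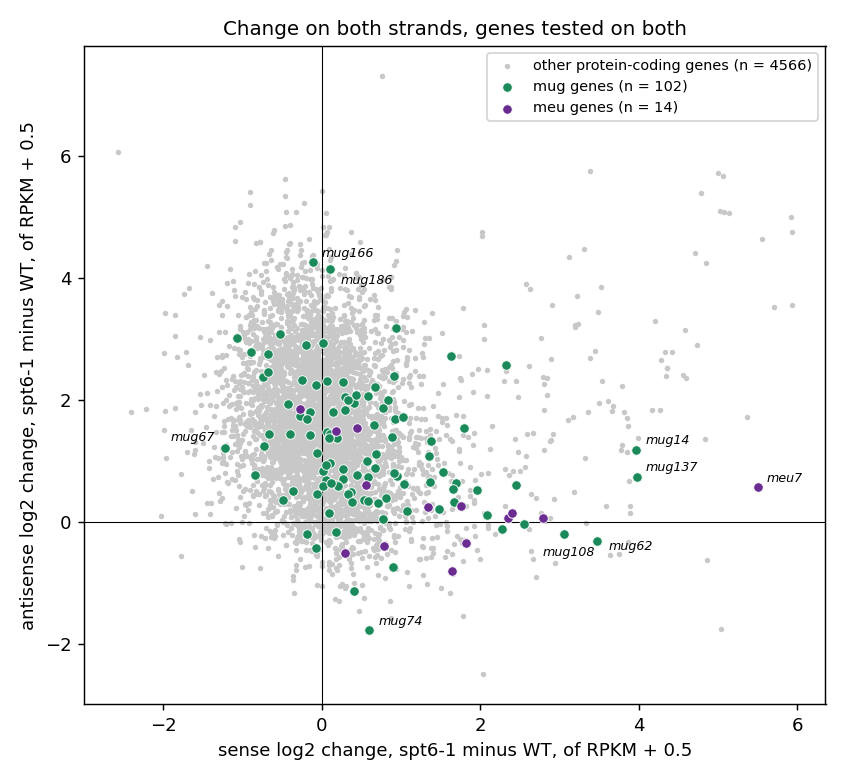
Antisense log2 change (vertical) against sense log2 change (horizontal), spt6-1 minus WT, both of RPKM + 0.5, for the genes tested on both strands (grey, 4566 other protein-coding genes; green, 102 mug genes; purple, 14 meu genes). The meu genes stretch to the right along the horizontal axis, up to 5.50 at meu7, while most mug genes lie above it, up to 4.27 at mug166. With centred libraries 14 of all 16 meu and 68 of all 104 mug genes tested on the antisense strand were lower, some of them not plotted.

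A list of 4 members that act on chromatin or RNA was read next. In the histone chaperone gene mug183 (rtt106) antisense RPKM rose from 1.09 and 1.499 to 7.39 and 9.58 (5.01-fold, adjusted p 8.69e-06), and in the coilin gene mug174 from 0.0835 and 0.0654 to 2.58 and 2.15 (4.98-fold, adjusted p 3.7e-06). Those of the splicing factor gene mug161 rose from 1.87 and 1.77 to 5.69 and 5.34 (2.59-fold, adjusted p 0.000111). With mug81, 4 of 4 rose on the antisense strand, where 81.9% of all genes tested did (mug161 turned to a log2 change of -0.72 with centred libraries and -0.50 after quantile normalization), while 0 of the 4 were called on the sense strand by limma (voom called 0, and 1, mug81, had an unadjusted p under 0.05). Members of like product outside the list varied. The RNA-binding protein genes mug24 and mug28 rose on the sense strand (log2 1.66 and 1.67), and mug151, annotated as a transcriptional regulator, was called on neither strand. The endoribonuclease gene mug71 fell (log2 -0.67), a call that needed all 4 libraries. With 1 library left out its log2 change was -0.84 to -0.51. Sense RPKM of mug183 were 15.2 and 15.8 in WT and 12.4 and 13.6 in spt6-1. Among 7 genes for enzymes and transporters, mug180 and meu22 rose and mug69 fell on the sense strand. Of protein-coding genes tested there, 12.1% rose and 8.2% fell. On the antisense strand 4 of 6 tested rose, against 81.9% of all genes tested. The acetate transporter gene mug86 had 4.36 and 7.64 sense RPKM in WT, against 4.63 and 6.45 in spt6-1, with antisense RPKM of 0.115 and 0.137, and 2.75 and 2.20 (4.73-fold, adjusted p 5.36e-06). The glycerate kinase gene mug58 was called on neither strand, with 58.0 and 69.0 sense RPKM in WT, against 78.9 and 86.0 in spt6-1.

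A list of 15 meiotic regulators outside the families, not all of which act at entry into meiosis, was read beside them. Of 14 tested on the sense strand 6 rose and 0 fell, against 12.1% and 8.2% of protein-coding genes, but 2 rose after quantile normalization and 2 of 8 tested with a filter 5 times stricter. Of 14 tested on the antisense strand 13 rose, where 81.9% of all protein-coding genes tested did. But the antisense split was 2 and 7 with centred libraries and 2 and 3 after quantile normalization. The copper-responsive factor gene cuf2, which acts with Mei4, had 0.0521 and 0.109 RPKM in WT, against 4.68 and 4.88 in spt6-1, from 1, 1, 70 and 45 reads (9.11-fold, adjusted p 0.000426). The forkhead gene mei4 had 0.335 and 0.296 in WT and 2.26 and 2.36 in spt6-1 (3.45-fold, adjusted p 0.00584). The bZIP factor genes atf21 and atf31 rose 3.79-fold and 2.97-fold, and rsv2 rose 2.57-fold. Of these, cuf2, mei4 and atf21 were under 1 RPKM in both WT libraries and passed the filter only through spt6-1. The gene of the kinase Pat1 (ran1), which holds back meiosis, had 7.18 and 16.2 RPKM in WT, against 24.5 and 37.4 in spt6-1 (2.72-fold, adjusted p 0.0339). Not called were ste11, mei2, mei3, rep1 and fkh2 and the decay genes mmi1, red1 and erh1. Of these, mmi1 had 17.9 and 26.5 RPKM in WT, against 22.3 and 25.2 in spt6-1, with overlapping groups. The level of ste11 was 5.42 and 11.9 in WT and 13.5 and 13.3 in spt6-1 (limma adjusted p 0.170). At an unadjusted p under 0.05 limma put 8 of the 14 higher and 0 lower, against 910 and 741 of 5060 protein-coding genes. The gene rsv1 was below the sense filter.

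The median summed exon length was 1674 bases for meu, 1566 for mug and 1795 for all protein-coding genes, and 55.6%, 62.6% and 51.1% had 1 exon. Members lay on all 3 chromosomes, 6, 7 and 5 meu genes and 58, 31 and 26 mug genes on I, II and III. A search of each member against the genome found a second copy at 95% identity for 1.12% of mug163 and for no other member.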

How the data were processed

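Poly(A) RNA was read strand-specifically on a Genome Analyzer IIx, per the labels' protocols. The authors deposited sense and antisense RPKM values per transcript, made with TopHat on build ASM294v2 per the submitters' processing notes. Other steps, tool versions included, were not given in the sources used here. Multiplying each RPKM by its length gave whole reads within 0.01 read for all values, in sense by exon length and in antisense by the span of the locus. The per-million total worked out for spt6-1 replicate 1 was 27994342 reads, below its 39693042 sense reads summed over features, and how this touches its values was not tested beyond the rescaled alternatives.

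limma 3.58.1 in R 4.3.3, with a variance trend and Benjamini-Hochberg adjustment at 0.05, was fitted to log2(RPKM + 0.5) of all 4 libraries. A fold change is on that scale and understates changes of low genes. Sense features needed 1 RPKM in 2 libraries, and antisense protein-coding genes 0.5 RPKM in 2 libraries. All features tested entered each adjustment. Alternatives were pseudocounts of 0.1 and 1, no filter, a filter 5 times stricter, median-centred and quantile-normalized libraries, no variance trend, voom on the recovered reads, a replicate block and each library left out.

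Named members were, by family and strand, the 10 largest rises and 5 largest falls past the threshold, the 5 highest in WT, and the members of 4 role groups. Others named switch their dominant strand, lie opposite a named gene or have a product like those of a role group, and were chosen after their values were seen. Members and lists were chosen with earlier results of these data known. Sequences are from RefSeq ASM294v3, to which all 133 members matched by locus. The deposited coordinates are of the earlier build, and 28 members have the same start and end in both. Copies were sought with BLAST 2.17.0.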

Additional observations from a re-analysis of the deposited data

How the results depend on the processing

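Member counts are given as higher and lower in spt6-1. With the filter 5 times stricter, fewer members are tested, and the counts were 5 higher for meu sense, 6 lower for the meu ratio, 21 higher for mug sense, 46 and 1 for mug antisense, 23 and 6 for the mug ratio, and 2 higher (sense) and 5 higher (antisense) for the regulators. With no filter 4 mug genes were lower in sense. Quantile normalization gave 6 and 1 for meu sense, 12 and 23 for mug sense, 0 and 11 for meu antisense, 16 and 43 for mug antisense and for the mug ratio, 1 higher for the meu ratio, 2 higher in sense for the regulators and 2 and 3 in antisense. Median-centred libraries gave 0 and 14 for meu antisense, 9 and 68 for mug antisense, 0 higher for the meu ratio, 10 and 66 for the mug ratio, and 2 and 7 for regulator antisense. Both settings remove the general antisense rise by construction. With voom on the recovered reads, 18 mug genes were higher and 3 lower in sense, and 2 meu genes lower in antisense. Leaving out each library gave 20 to 24 higher and 1 to 4 lower for mug sense, and 0 to 1 lower for meu antisense, the 0 without spt6-1 replicate 2. With a replicate block 3 meu genes were lower in antisense, and mug sense had 41 higher and 11 lower. Same-numbered libraries deviated together (correlation 0.323 in sense, 0.202 in antisense), but with 2 numbers and no label this does not pair them. With no variance trend 6 mug genes were lower in sense, and with a pseudocount of 1 the meu ratio was higher at 2 genes; pseudocounts and the trend moved no other family count by as much as 1.5 times. The cause of the other shifts was not tested.

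The sense change turned negative under quantile normalization for meu13 (-0.14), meu22 (-0.35) and mug20 (-0.31). The antisense change turned negative, first with centred libraries and then, where a second value stands, after quantile normalization, for meu6 (-1.84, -0.72), meu8 (-1.49, -0.96), meu10 (-1.84, -1.59), meu23 (-0.24, -0.21), meu25 (-2.03, -1.21), meu27 (-2.03, -1.47), meu29 (-0.55, -0.48), mug14 (-0.91, -0.80), mug20 (-0.23, -0.23), mug58 (-1.60, -1.01), mug67 (-0.88, -0.70), mug100 (-1.31, -0.70), mug106 (-1.202, -0.77), mug134 (-0.65, -0.45), mug161 (-0.72, -0.50) and mug180 (-0.55, -0.17). It turned in 1 of the settings for meu7 (-1.52), meu14 (-1.95), meu34 (-0.60), mug28 (-1.77), mug35 (-0.089), mug55 (-1.49), mug97 (-1.58), mug131 (-1.98) and mug137 (-1.35).

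Depth limits the lowest members, such as mug112 with 1 and 2 sense reads in WT.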

Other observations

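The 7 meu transcripts outside the rule were called by limma in 0 cases on the sense strand (voom also called 0, and 1, meu3, had an unadjusted p under 0.05). The long and short forms of meu1-1 had 5.08 and 5.24, and 2.04 and 2.52 RPKM in WT, and 5.93 and 6.09, and 2.74 and 5.40 in spt6-1. Of the non-coding RNAs, meu3 had 0.861 and 1.64 RPKM in WT, against 2.35 and 5.76 in spt6-1 (adjusted p 0.0634). The RNA meu11 stayed under 1 RPKM and was not tested. Sense RPKM of meu16 were 6.03 and 4.99 in WT and 5.65 and 7.47 in spt6-1, and those of meu19 1.23 and 3.18, and 1.91 and 5.49. The RNA meu20 had 2.85 and 1.82 in WT and 2.24 and 2.48 in spt6-1. The groups overlap for meu16, meu19 and meu20.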
